A study of Mus musculus with 4 samples.

Results

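Notch1, Notch2, Notch3 and Notch4 (the Notch receptors), Jag1, Dll1 and Dll4 (ligands) and Hes1, Hey1 and Heyl (target genes) were followed cell class by cell class through the days after injury of the tibial muscle. The 10 genes were taken by symbol from the 32285 genes of the deposited table, and each was listed once. The cells came from tibial muscle of Nse-Bmp4 mice, a C57BL/6 line in which the neuron-specific enolase promoter (Nse) drives Bmp4, used at an age of 6 to 8 weeks as a model of heterotopic ossification (HO), the formation of bone in soft tissue. Muscles were left uninjured or were injured with cardiotoxin, a muscle-damaging venom toxin, and were taken 1, 3 or 7 days post injury (dpi). Each time point was 1 single cell library (10x Genomics, which tags each captured RNA molecule with a unique molecular identifier, UMI) made from 3 pooled muscles. All 4 libraries, the uninjured one included, carried the transgene, so no comparison here involves wild type muscle. With 1 library per time point no difference between times could be tested, and a time point, its pool of muscles and its library cannot be told apart.

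Notch signalling passes between cells that touch. A Delta-like or Jagged ligand on one cell binds a Notch receptor on its neighbour, the receptor is cut in the membrane, and its inner part enters the nucleus, where with the DNA-binding protein RBPJ it switches on Hes and Hey genes, which encode repressors of transcription. In muscle the pathway is known for holding Pax7+ satellite cells, the stem cells of muscle fibres, back from differentiation. In vessels it is known for arterial identity, with Notch1, Notch4 and Dll4 in endothelium and Notch3 in the mural cells (pericytes and smooth muscle) around it.

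Cells were placed in 13 classes by marker gates of 8 genes each, and a level is given as the UMIs of a gene relative to 1000000 UMIs of all genes, summed over a class in a library (CPM). The 4 libraries held 12031 to 23752 barcodes and 91146335 to 129007669 UMIs, and 9641 to 20300 cells per library were kept, with medians of 8638 UMIs per cell in the Uninjured library and 5896, 4338 and 3049 at 1, 3 and 7 dpi. Library pairs shared 30 to 95 barcodes. The endothelial, mural and myogenic classes were small, with 22, 59, 135 and 86 endothelial cells, 117, 15, 19 and 450 mural cells and 184, 95, 348 and 195 myogenic cells in the Uninjured, 1, 3 and 7 dpi libraries. Chondrocyte-like cells were gated only at 7 dpi (3121 cells) and keratinocyte-like cells only at 3 dpi (46 cells). Of the gate genes, Pecam1 had a UMI in 86.7 to 100% of endothelial cells and Pax7 in 55.9 to 89.5% of myogenic cells. Others were sparser, with Emcn in 33.3 to 54.2% of endothelial and Myf5 in 28.7 to 69.5% of myogenic cells. These genes define the gates, so their presence is no separate check of the classes. Kcnj8, a pericyte marker, had a UMI in 10.5 to 42.0% of mural cells. The 7 dpi library stood apart in matrix RNA, with a Col1a1 UMI in 70.0% of T cells there against 15.5 to 31.4% in the other libraries, and a Col2a1 UMI in 30.8% of them against at most 0.258%. A gene was called different between 2 class-libraries of at least 50 cells each when its CPM differed by more than 2-fold, the exact 95% interval of the ratio excluded 1 and both together held at least 20 UMIs. Subsets of a class were compared where each side held at least 20 cells. The intervals cover counting error only, not the spread between animals.

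On GRCm38 (mm10) coordinates, Notch1 lies at chr2:26457903-26516663, Jag1 at chr2:137081456-137116644, Dll4 at chr2:119325784-119335962, Notch2 at chr3:98013527-98150361 and Hey1 at chr3:8663359-8667256. Heyl lies at chr4:123233556-123249875 and Hes1 at chr16:30064384-30067796, and Notch3, Notch4 and Dll1 share chromosome 17, at chr17:32120820-32166852, chr17:34564268-34588503 and chr17:15367354-15376872. Among the genes of the deposited table, Notch1, Notch3 and Dll4 overlap others on the opposite strand. Dll1 overlaps an annotated gene that is not among them, A930024N18Rik. The strand used in counting is not given in the sources used here, so reads of those neighbours cannot be told apart from reads of the members.

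**Figure D1:**
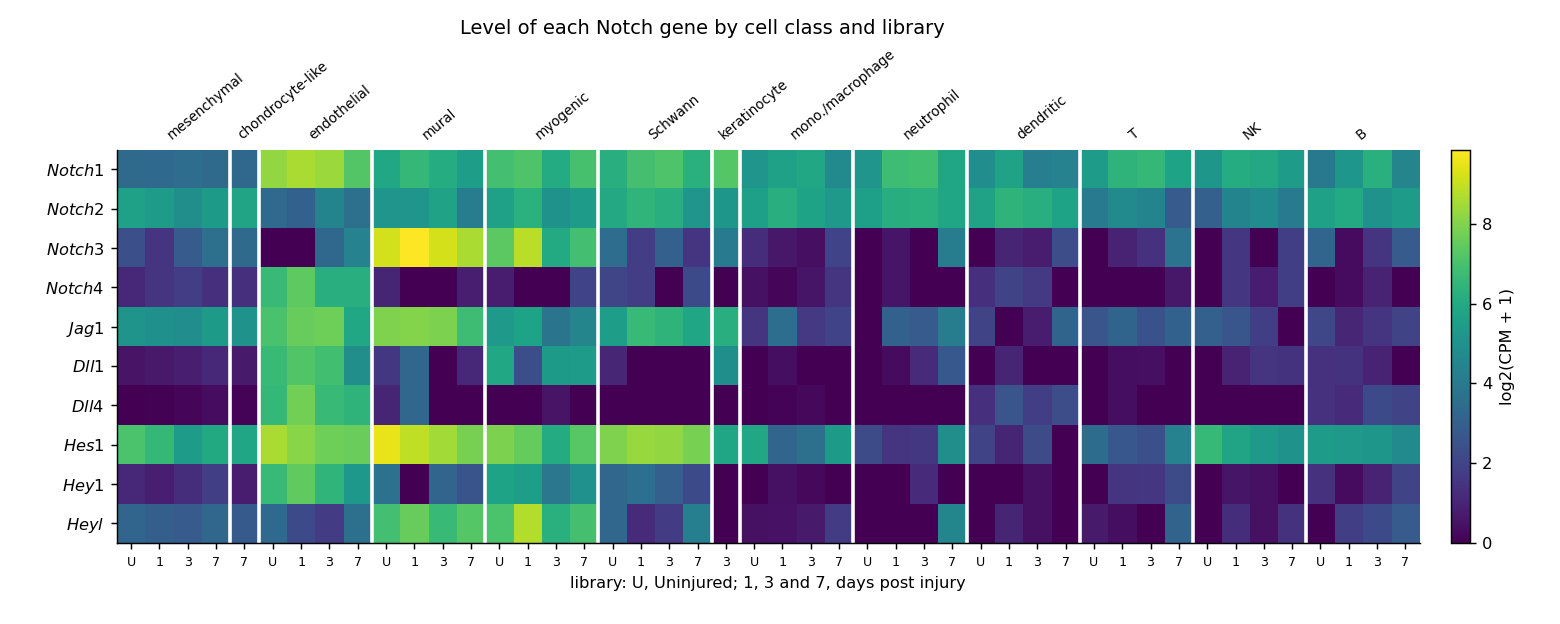
Level of the 10 Notch pathway genes (rows) in each cell class and library of at least 15 cells (columns), coloured by log2(CPM + 1). Notch4 and Dll4 stood out in the endothelial columns, Notch3 and Heyl in the mural and myogenic columns, and Notch1, Notch2 and Hes1 were read in nearly all columns.

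Each receptor had a different spread over the classes. Notch3 had its highest levels in mural and myogenic cells. Of its 1228, 477, 838 and 2435 UMIs in the Uninjured, 1, 3 and 7 dpi libraries, mural cells held 46.1%, 22.9%, 8.59% and 42.5% and myogenic cells 18.5%, 46.1%, 34.7% and 5.09%. The far larger mesenchymal class held 27.9%, 12.2%, 39.3% and 28.7%, at 1.77 to 11.5 CPM. Its level in T cells, a class not expected to make it, was 0 CPM in the Uninjured library, 0.902 at 1 dpi, 1.65 at 3 dpi and 12.3 at 7 dpi. Notch4 was at 70.7 to 169 CPM in endothelial cells and at 1.12 to 2.49 CPM in mesenchymal cells, although the many mesenchymal cells still held 44.3 to 80.7% of its UMIs. Notch1 was read in every class, with 8.94 CPM in chondrocyte-like cells, 9.38 to 10.6 CPM in mesenchymal cells and 149.9 to 385 CPM in endothelial cells. Notch2 was read in every class as well, at 6.17 to 24.3 CPM in T cells, 7.34 to 20.6 in endothelial cells, 28.4 to 49.2 CPM in mesenchymal cells, 31.6 to 76.8 in myogenic cells and 38.6 to 70.8 in macrophages.

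The ligands differed in how widely they were read. Dll4 had 62.5%, 71.6%, 55.0% and 50.8% of its UMIs in endothelial cells, a class that held only 0.120%, 0.381%, 0.501% and 0.358% of all UMIs of those libraries, and T cells held 1 Dll4 UMI over the 4 libraries. Dll1 had its highest levels in endothelial and myogenic cells. Of its UMIs, myogenic cells held 60.4%, 1.96% and 52.4% in the Uninjured, 1 and 3 dpi libraries and 44 of 176 at 7 dpi. Endothelial cells held 8.21%, 38.2%, 14.4% and 5.68% in the 4 libraries, and mesenchymal cells, at 0.433 to 1.16 CPM, 25.4%, 19.6%, 11.6% and 39.8%. Jag1 was read more widely, in mural, endothelial, Schwann-like and keratinocyte-like cells among others. It was at 27.5 to 39.9 CPM in mesenchymal cells, 12.9 to 51.9 CPM in myogenic cells and 31.9 CPM in chondrocyte-like cells.

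Among the targets, Hes1 was the widest. Mesenchymal cells held 57.2 to 86.01% of its UMIs, and the class with the highest level in the Uninjured library was the mural class, at 729 CPM. Hey1 was at 36.8 to 172 CPM in endothelial cells, 14.0 to 51.2 CPM in myogenic cells and 0.764 to 2.59 CPM in mesenchymal cells. The many mesenchymal cells still held 95, 25, 79 and 157 of its UMIs in the Uninjured, 1, 3 and 7 dpi libraries. Myogenic cells held 70, 21, 64 and 32. Heyl, like Notch3, had its highest levels in mural and myogenic cells.

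In the myogenic class the receptor Notch3 and the target Heyl were highest at 1 dpi and lowest at 3 dpi, and the ligand Dll1 was at its lowest at 1 dpi. Notch3 was at 166, 457, 63.5 and 120.1 CPM in the Uninjured, 1, 3 and 7 dpi libraries, on 227, 220, 291 and 124 UMIs. A Notch3 UMI was found in 58.7%, 82.1%, 40.8% and 32.8% of myogenic cells, against 0 to 1.36% of T cells. Thinned to a common number of UMIs per cell, the myogenic shares were 17.9%, 36.8%, 11.0% and 15.3%, in the same order as the levels. Heyl was at 132, 421, 74.6 and 123 CPM. Dll1 was at 59.3, 4.15, 40.4 and 42.6 CPM, the second of these on 2 UMIs in 95 cells. Notch4 and Dll4, which belong to endothelium, had at most 3 UMIs per library in myogenic cells.

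From Uninjured to 1 dpi, 3 of the 8 members tested in myogenic cells were called, against 27.3% of all genes tested. Notch3 rose 2.75-fold (95% interval 2.27 to 3.33) and Heyl 3.20-fold (2.61 to 3.93). Dll1 fell, with a ratio of 14.3-fold lower (3.83 to 119.9) that rests on the 2 UMIs at 1 dpi. From 1 to 3 dpi all 8 tested members were called, against 36.4% of all genes. Notch3 was 7.19-fold lower (6.01 to 8.60), Heyl 5.65-fold lower (4.72 to 6.74), Jag1 4.03-fold lower (2.42 to 6.54), Hey1 3.12-fold lower (1.81 to 5.18) and Hes1 2.74-fold lower (2.14 to 3.49). Notch1 (2.13-fold, 1.61 to 2.79) and Notch2 (2.43-fold, 1.64 to 3.50) were lower too. Dll1 alone was higher, 9.72-fold (2.65 to 80.9). The median log2 ratio was -1.55 over the tested members and 0.21 over all genes tested. The myogenic cells of the 3 dpi library were also the deepest, at 9665 UMIs in the median cell, where those of 1 dpi held 4649. With cells thinned to a common depth, 4 members rather than 8 were called in this step.

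From 3 to 7 dpi, 2 of 8 tested members were called in myogenic cells, against 21.1% of all genes: Hes1 rose 2.37-fold (1.95 to 2.88) and Hey1 2.22-fold (1.40 to 3.44). Between Uninjured and 7 dpi none of the 8 tested members passed the 2-fold limit, against 7.76% of all genes. Hes1, Hey1 and Jag1 were nevertheless lower at 7 dpi than in the Uninjured library, by 1.51-fold (1.24 to 1.83), 1.65-fold (1.07 to 2.60) and 1.79-fold (1.07 to 3.09), with intervals that exclude 1, and so was Notch3, by 1.38-fold (1.11 to 1.74). Hes1 was at 238, 183, 66.6 and 158 CPM, and Hey1 at 51.2, 43.6, 14.0 and 31.0 CPM. Jag1 was at 38.0, 51.9, 12.9 and 21.3 CPM. The other receptors moved less than Notch3, with Notch1 at 119, 139, 65.3 and 127 CPM and Notch2 at 48.3, 76.8, 31.6 and 41.6 CPM.

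**Figure D2:**
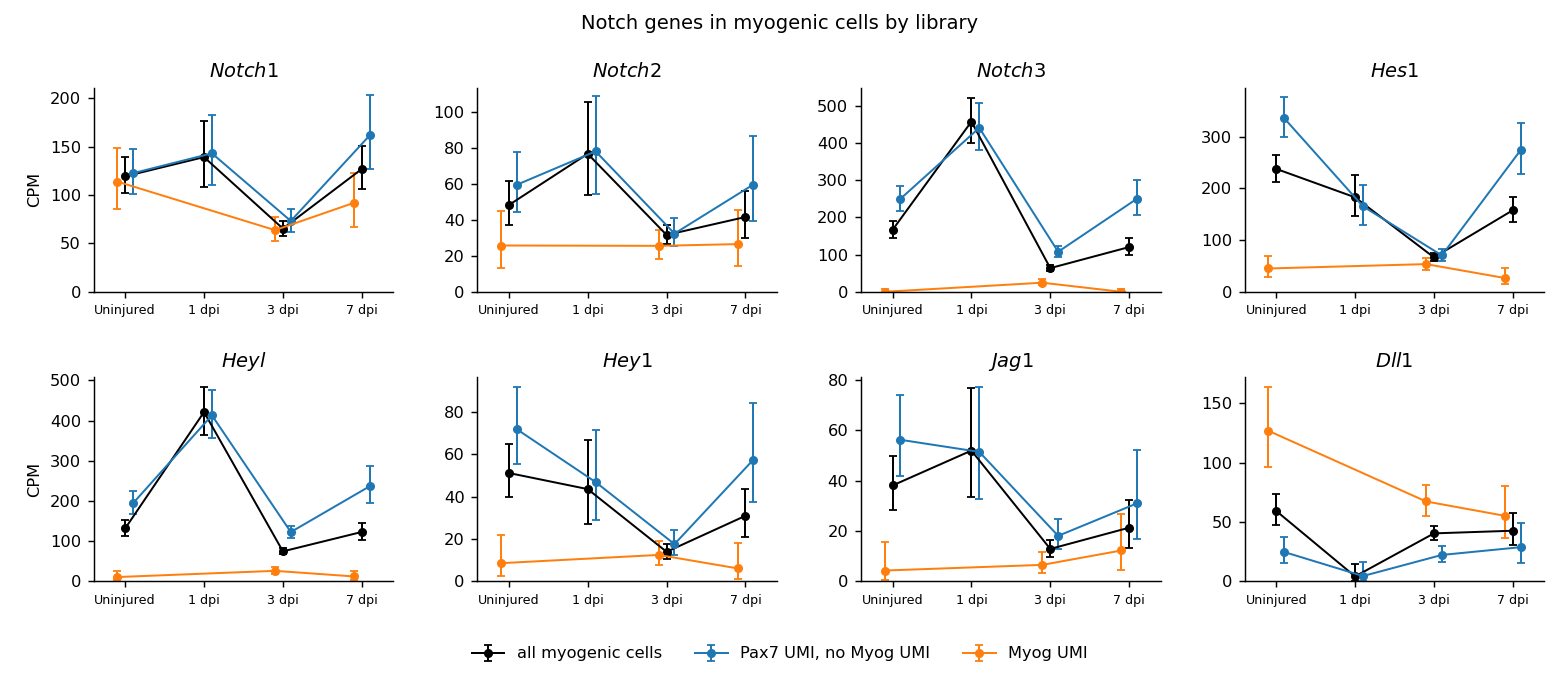
Level (CPM, linear axis) of 8 Notch pathway genes in the myogenic class at the 4 time points, for all cells, for Pax7+ cells with no Myog UMI and for Myog+ cells, with exact 95% Poisson intervals of the UMI counts. Notch3, Heyl, Hes1, Hey1 and Jag1 lay low in the Myog+ cells, and Dll1 lay higher in the Myog+ than in the Pax7+ Myog- cells.

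The myogenic class was a mixture whose make-up changed with time. Myogenin (Myog), a transcription factor of committed muscle cells, had a UMI in 20.1% of myogenic cells in the Uninjured library, in 0% at 1 dpi, in 27.3% at 3 dpi and in 37.9% at 7 dpi. Pax7+ cells with no Myog UMI (144, 85, 181 and 101 cells) and Myog+ cells (37, 0, 95 and 74 cells) were therefore split off. These gates do not make up the whole class of 184, 95, 348 and 195 cells, and cells in neither were not followed apart. At 1 dpi a Myog UMI was counted in 0 of 95 cells, which allows up to 3.16% of cells with a Myog UMI. It does not limit the share that expresses the gene.

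Across the split the ligand Dll1 and the receptor Notch3 differed in opposite directions. In the Uninjured library Notch3 had 222 UMIs in Pax7+ Myog- cells and 0 in Myog+ cells, at least 38.7-fold lower. Heyl was 18.1-fold lower in the Myog+ cells (7.61 to 56.5), Jag1 13.1-fold lower (3.44 to 111), Hey1 8.37-fold lower (3.12 to 31.7) and Hes1 7.45-fold lower (4.79 to 12.2). Dll1 went the other way and was 5.12-fold higher (3.09 to 8.78), at 127 CPM against 24.7. At 3 dpi Dll1 was again higher in Myog+ cells, 3.02-fold (2.14 to 4.33), while Notch3 was 4.40-fold and Heyl 4.69-fold lower. At 7 dpi Notch3 was at least 40.8-fold lower in Myog+ cells (0 against 113 UMIs), and Hes1, Hey1 and Heyl were 10.3-fold, 9.39-fold and 19.3-fold lower. Dll1 was at 55.1 CPM in the Myog+ and 28.8 CPM in the Pax7+ Myog- cells of that library, under the 2-fold limit. Notch1 was at 114, 63.7 and 91.9 CPM in the Myog+ cells of the Uninjured, 3 and 7 dpi libraries and at 122, 73.2 and 161 CPM in the Pax7+ Myog- cells. It was called in none of these libraries, and at 7 dpi it was 1.76-fold lower in the Myog+ cells (1.196 to 2.61).

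The same split bears on the changes with time. Within Pax7+ Myog- cells alone, Notch3 was at 249.5, 440.1, 107 and 249.96 CPM and Heyl at 194, 413, 123 and 237 CPM, so the peak at 1 dpi and the low at 3 dpi stood in these cells too. From 1 to 3 dpi Notch3 was 4.10-fold (3.37 to 4.97) and Heyl 3.37-fold (2.78 to 4.08) lower in them. From Uninjured to 1 dpi Heyl was 2.13-fold higher (1.72 to 2.63), and Notch3, with a log2 ratio of 0.82, was not called. Hes1 was at 336, 165, 70.4 and 274 CPM and was already 2.03-fold lower at 1 dpi (1.57 to 2.66). From 3 to 7 dpi 4 members were called higher in these cells, where the whole class gave 2: Hes1 3.90-fold (3.05 to 4.97), Hey1 3.27-fold, Notch3 2.33-fold and Notch1 2.21-fold. No share over all genes is given for this subset, so the count alone does not set the members apart. Dll1 was at 24.7, 4.47, 22.2 and 28.8 CPM in them, 5.53-fold lower at 1 dpi than in the Uninjured library (1.36 to 48.5).

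Reads of ligand and receptor were also counted in single cells. In the Uninjured library 16 myogenic cells held UMIs of both Dll1 and Notch3, 32 of Dll1 without Notch3 and 92 of Notch3 without Dll1. At 3 dpi the counts were 28, 68 and 114, and at 7 dpi 3, 31 and 61. A cell with no UMI may still express the gene at this depth.

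The start sites of Dll1 and Notch3 are shown because the ligand was higher and the receptor lower in Myog+ than in Pax7+ Myog- cells. For Dll1 the difference passed the 2-fold limit in the Uninjured and 3 dpi libraries but not at 7 dpi. The sequences are the 250 bases before the start, written 5′ to 3′ on the minus strand of chromosome 17, from RefSeq on GRCm38.p6, at chr17:15376933-15377182 for Dll1 and chr17:32166891-32167140 for Notch3. Capitals mark E-boxes (CANNTG, which is found at the same place on both strands), the motif bound by MyoD, myogenin and related factors. 
Dll1: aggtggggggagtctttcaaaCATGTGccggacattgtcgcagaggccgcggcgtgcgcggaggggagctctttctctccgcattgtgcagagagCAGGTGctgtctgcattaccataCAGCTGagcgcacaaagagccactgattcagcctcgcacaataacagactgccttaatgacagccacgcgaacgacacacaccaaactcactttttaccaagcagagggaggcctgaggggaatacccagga
Notch3: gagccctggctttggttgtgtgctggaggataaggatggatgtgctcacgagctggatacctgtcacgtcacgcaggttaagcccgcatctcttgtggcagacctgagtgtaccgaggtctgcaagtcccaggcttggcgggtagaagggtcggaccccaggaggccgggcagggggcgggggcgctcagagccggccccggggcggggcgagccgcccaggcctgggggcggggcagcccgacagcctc
The Dll1 window holds 3 E-boxes, 229, 155 and 132 bases before the start, and the Notch3 window holds 0. Both RefSeq starts lie outside the gene positions given above, which end at chr17:15376872 for Dll1 and chr17:32166852 for Notch3. The bases after these starts were not found in the annotated transcripts of the genes, while those after the other starts searched were. For Dll1 only the start outside the annotated gene was printed. Of all 32851 windows of this length, 66.2% hold at least 1 E-box and 12.2% at least 3. The core of the RBPJ motif (TGGGAA, searched on both strands) is in none of the 8 windows found for 7 of the members, and 21.6% of all windows hold it. These members are receptors and ligands. No window was available for the target genes Hes1, Hey1 and Heyl, so theirs were not searched. Besides the printed windows, those searched were of Notch1, Notch2, Notch4, Jag1, Dll4 and a further start of Dll1. Of these, the windows of Notch4, Jag1 and the further Dll1 start held 1 E-box each, and those of Notch1, Notch2 and Dll4 held 0. A match of letters is a description of the window and no evidence of binding.

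In endothelial cells, which line the vessels, Notch1, Notch4, Dll1, Dll4 and Hey1 were highest at 1 dpi and lowest at 7 dpi. Dll4, the ligand of arterial endothelium and sprouting tips, was at 92.6, 213, 101 and 84.8 CPM on 10, 58, 44 and 30 UMIs. Notch4 was at 102, 169, 71.1 and 70.7 CPM and Notch1 at 305.7, 385, 328 and 149.9 CPM. The 22 cells of the Uninjured library were too few for a ratio, so only the later steps were compared. Notch2, Notch3 and Heyl had too few UMIs in this class to be tested.

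From 1 to 3 dpi, 2 of the 7 members tested in endothelial cells were called lower, against 8.59% of all genes: Notch4 2.38-fold (1.47 to 3.88) and Dll4 2.11-fold (1.40 to 3.20). Hey1, at 102, 172, 87.1 and 36.8 CPM, was 1.98-fold lower in this step (1.26 to 3.12), just inside the 2-fold limit. From 3 to 7 dpi, 4 of 7 were called lower, against 16.5% of all genes. Dll1, at 102, 143, 117 and 28.3 CPM, fell most in fold, 4.13-fold (2.08 to 9.13), on 51 and 10 UMIs. Jag1, at 129.7, 191, 204 and 59.4 CPM, was 3.44-fold lower (2.12 to 5.82), Hey1 2.37-fold lower (1.23 to 4.85) and Notch1 2.19-fold lower (1.59 to 3.06). Hes1, at 389, 272, 204 and 192 CPM, was called in neither step. The median log2 ratio of the 7 members was -0.41 in the first step and -1.13 in the second, beside 0.01 and -0.10 over all genes.

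The 7 dpi endothelial cells carried other RNA as well. The summed level of the 8 mesenchymal markers was 66.1 to 328 CPM in the first 3 libraries, with 1 to 5 of the 8 at 0, and 4120.3 CPM at 7 dpi, with none at 0. The 8 endothelial markers summed to 8679.6, 8331, 5975 and 5693 CPM. Their part in the result was not tested. Without the requirement that endothelial cells hold no UMI of the leukocyte gene Ptprc, 0 members were called from 1 to 3 dpi and 1 from 3 to 7 dpi. No share over all genes is given for that gate, so whether the loss is particular to the members cannot be told. Within cells with at least 2 arterial markers (19, 40, 79 and 33 cells) the order of the levels was like that of the class, with Dll4 at 105, 248, 150.5 and 85.9 CPM and Dll1 at 116, 185, 169 and 32.2 CPM.

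**Figure D3:**
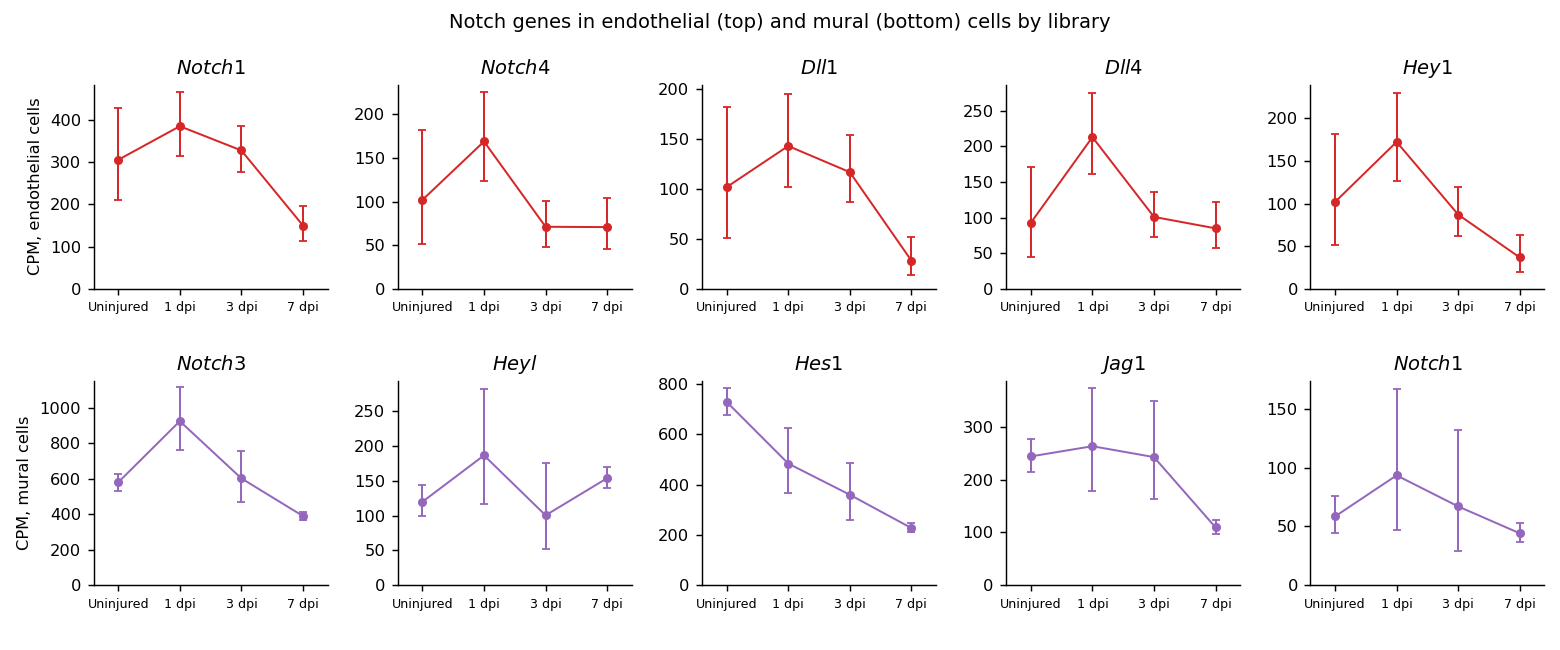
Level (CPM) of Notch pathway genes in endothelial cells (Notch1, Notch4, Dll1, Dll4, Hey1) and in mural cells (Notch3, Heyl, Hes1, Jag1, Notch1) at the 4 time points, with exact 95% Poisson intervals of the UMI counts. Dll4 in endothelium was highest at 1 dpi, and Hes1 in mural cells was lower at 7 dpi (227 CPM) than in the Uninjured library (729 CPM).

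In mural cells the targets Hes1 and Hey1 and the ligand Jag1 were lower at 7 dpi than in the Uninjured library, the only pair of libraries with at least 50 mural cells each. Hes1 was at 729, 484, 359.6 and 227 CPM and Jag1 at 244, 263, 243 and 109 CPM. Notch3, the receptor altered in CADASIL, a disease of small arteries, was at 579.9, 925, 602 and 389.5 CPM, and a Notch3 UMI was in 98.3% of mural cells in the Uninjured library and in 61.8% at 7 dpi. Between these libraries 3 of 7 tested members were called, all lower at 7 dpi, against 28.6% of all genes: Hes1 3.21-fold (2.88 to 3.59), Hey1 2.51-fold (1.05 to 5.97) and Jag1 2.23-fold (1.87 to 2.66). The Hey1 call rests on few counts, 12 UMIs in the Uninjured library and 13 at 7 dpi, at 12.3 and 4.89 CPM. Notch3 was 1.49-fold lower (1.34 to 1.65), under the 2-fold limit. Heyl, at 119.9, 187, 100.4 and 154 CPM, was 1.28-fold higher (1.04 to 1.59). The median log2 ratio was -0.97 over the tested members and 0.18 over all genes. Notch4, Dll1 and Dll4 had at most 3 UMIs per library in mural cells.

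The mural cells of these libraries were of different kinds. Rgs5, a pericyte marker, had a UMI in 24 of 117 mural cells (20.5%) in the Uninjured library and in 369 of 450 (82.0%) at 7 dpi, and Myh11, a smooth muscle marker, in 96.6% and 62.0%. The 8 mesenchymal markers summed to 282 CPM in the Uninjured library and 5811 CPM at 7 dpi, with none at 0 in either, and a Col1a1 UMI was in 39.3% and 94.7% of cells. Among Rgs5- cells (93 and 81 cells) no member was called: Hes1 was at 717 and 639 CPM, Jag1 at 248 and 218 CPM and Notch3 at 545 and 365 CPM. Among Rgs5+ cells (24 and 369 cells) Hes1 was at 800.1 and 164 CPM, 4.89-fold lower (3.94 to 6.02). This passed the limits for a subset, though the Uninjured side held only 24 cells. No share over all genes is given for these subsets. Within the 7 dpi library Rgs5- cells had 3.90-fold more Hes1 (3.30 to 4.62) and 2.35-fold more Jag1 (1.79 to 3.07) than Rgs5+ cells. The Rgs5 split was chosen after the levels had been seen.

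In mesenchymal cells, the fibroblast-like class that held 37.7 to 81.3% of the kept cells of a library, Hes1 fell with injury and Notch3 dipped at 1 dpi. Hes1 was at 131, 92.4, 43.1 and 62.0 CPM, so the lowest level was at 3 dpi. Notch3 was at 4.35, 1.77, 6.15 and 11.5 CPM, low throughout. At 7 dpi other classes not expected to make Notch3 held it at 12.3 CPM (T cells), 2.97 CPM (macrophages) and 2.57 CPM (NK cells). The 8 mural markers summed to 111, 44.9, 206 and 1190.4 CPM in the mesenchymal class, with none at 0, in the same order over the libraries as Notch3. Their part in the Notch3 differences was not tested.

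From Uninjured to 1 dpi, 1 of 9 tested members was called in mesenchymal cells, against 14.4% of all genes: Notch3, 2.46-fold lower (1.86 to 3.30). Hes1 was 1.42-fold lower in this step, under the limit. From 1 to 3 dpi 2 of 9 were called, against 12.9% of all genes, Hes1 2.15-fold lower (2.03 to 2.27) and Notch3 3.47-fold higher (2.62 to 4.67). From 3 to 7 dpi none of 10 was called, against 19.4% of all genes. Between Uninjured and 7 dpi 4 of 9 were called, against 29.9% of all genes: Hes1 was 2.12-fold lower (2.04 to 2.20), and Notch3 2.65-fold, Dll1 2.67-fold and Hey1 2.14-fold higher, with Dll1 at 0.433 and 1.16 CPM and Hey1 at 1.21 and 2.59 CPM. T cells of the 7 dpi library held Hey1 at 3.92 CPM, above the mesenchymal level, and Dll1 at 0 CPM. With cells thinned to a common depth, 0 members were called from 1 to 3 dpi and 2 between Uninjured and 7 dpi. Thinning lowers the UMI counts here as well, and no share over all genes is given for it.

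The fall of Hes1 was spread over the class. A Hes1 UMI was in 53.8%, 42.4%, 24.0% and 20.6% of mesenchymal cells, and after thinning in 11.9%, 9.56%, 5.32% and 6.39%, against 0.193 to 0.850% of thinned T cells. In each of 5 subsets gated on 1 or either of 2 marker genes the lowest Hes1 level was at 3 dpi. The subsets share cells and are not separate readings. In the Uninjured library 5626 Pi16+ or Dpp4+ and 7136 Col15a1+ or Smoc2+ cells came from 8378 mesenchymal cells. Pi16+ or Dpp4+ cells were at 127, 85.2, 40.1 and 75.0 CPM, Col15a1+ or Smoc2+ cells at 131, 95.6, 43.7 and 60.7 CPM, and Lrrc15+ cells at 82.2, 78.7, 30.1 and 51.0 CPM, the first pair of these on 22 and 19 cells. In cells with no UMI of Mki67 or Top2a, genes of cycling cells, Hes1 was 2.08-fold lower from 1 to 3 dpi.

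Chondrocyte-like cells of the 7 dpi library differed from the mesenchymal cells of that library in 1 of 9 tested members, against 11.8% of all genes. This was Hey1, at 0.688 against 2.59 CPM on 10 and 157 UMIs, 3.77-fold lower (1.996 to 8.01). T cells of that library held Hey1 at a higher level than either class. In the chondrocyte-like cells Notch2 was at 53.2 CPM, Jag1 at 31.9 CPM and Hes1 at 56.0 CPM, close to the mesenchymal values of 39.9, 39.9 and 62.0 CPM. Among the chondrocyte-like cells, Hes1 was at 68.5 CPM in Col10a1+ cells and 50.6 CPM in Col10a1- cells, Col10a1 being a gene of hypertrophic cartilage.

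In the macrophage class, which includes monocytes, Hes1 went down at 1 dpi and was higher again at 7 dpi, while Jag1 went up at 1 dpi only. Hes1 was at 58.7, 8.24, 11.3 and 40.4 CPM on 161, 120, 69 and 68 UMIs. The T cell levels of Hes1 were 10.2, 5.41, 4.28 and 19.6 CPM, so the macrophage level at 1 dpi was near that of T cells. Jag1 was at 1.82, 10.9, 2.13 and 2.97 CPM on 5, 158, 13 and 5 UMIs. Notch1 and Notch2, the receptors read in this class, were at 34.3, 48.9, 57.2 and 25.5 CPM and at 46.7, 70.8, 51.6 and 38.6 CPM. The other 6 members had at most 8 UMIs per library in macrophages.

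From Uninjured to 1 dpi, 2 of 4 tested members were called in macrophages, against 19.4% of all genes: Hes1 7.12-fold lower (5.59 to 9.10) and Jag1 5.95-fold higher (2.50 to 18.6). From 1 to 3 dpi 1 of 4 was called, against 11.4% of all genes, Jag1 being 5.09-fold lower (2.89 to 9.77). From 3 to 7 dpi 2 of 3 were called, against 11.3% of all genes, Notch1 2.24-fold lower (1.63 to 3.15) and Hes1 3.57-fold higher (2.51 to 5.06). Between Uninjured and 7 dpi none of 3 passed the 2-fold limit, against 6.38% of all genes. The 8 mesenchymal markers summed to 67.9 to 247 CPM in macrophages of the first 3 libraries and to 862 CPM at 7 dpi, with none at 0, while their part in the rise of Hes1 was not tested.

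The class was split by complement C1q genes, which mark macrophages, and by Ly6c2, which marks monocytes. From Uninjured to 1 dpi Hes1 was lower in both, 7.94-fold (4.84 to 13.0) in C1q+ cells and 8.45-fold (5.82 to 12.2) in Ly6c2+ C1q- cells. In the Ly6c2+ C1q- cells Hes1 was at 91.2, 10.8, 15.2 and 79.1 CPM and rose 5.19-fold from 3 to 7 dpi (3.03 to 9.09). At 7 dpi the gates held 97 C1q+ and 129 Ly6c2+ C1q- cells of the 354 in the class. Cells in neither gate were not followed apart. In C1q+ cells Hes1 was at 47.4, 5.97, 12.9 and 9.83 CPM, the last of these on few UMIs in 97 cells. The ratio of 7 to 3 dpi had the opposite sign (log2 ratio -0.39) but lay inside the 2-fold limit. At 7 dpi C1q+ cells had 8.04-fold less Hes1 than Ly6c2+ C1q- cells, a value that rests on the same few UMIs. Jag1 at 1 dpi was 2.27-fold higher in C1q+ than in Ly6c2+ C1q- cells, at 14.6 and 6.41 CPM.

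**Figure D4:**
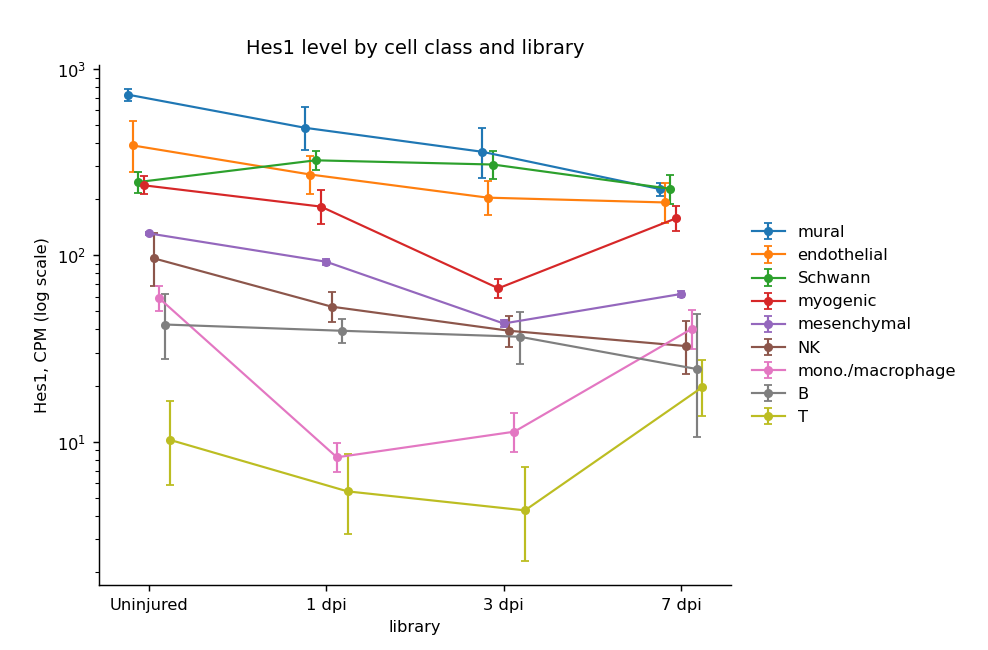
Level of Hes1 (CPM, log axis) in 9 cell classes at the 4 time points, with exact 95% Poisson intervals. Macrophages showed the deepest dip, from 58.7 CPM in the Uninjured library to 8.24 CPM at 1 dpi, while mesenchymal and myogenic cells were lowest at 3 dpi.

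The remaining classes were described without ratios. Notch1, which in lymphocytes guides T cell development, was higher at 1 and 3 dpi than in the Uninjured and 7 dpi libraries in each of 5 of these classes. It was at 42.8, 84.4, 93.4 and 51.6 CPM in T cells, 36.1, 67.4, 60.5 and 41.1 CPM in NK cells, 14.7, 35.4, 75.9 and 21.5 CPM in B cells and 34.4, 111, 117 and 55.7 CPM in neutrophils. The first and last values rest on 9 and 7 UMIs in B cells and on 9 and 10 UMIs in neutrophils. Schwann-like cells, the glia of peripheral nerve, were the fifth, at 70.8, 123, 141 and 74.7 CPM. Dendritic cells differed, with Notch1 at 27.3, 50.1, 17.8 and 19.9 CPM, lower at 3 dpi than in the Uninjured library. Their 7 dpi value rests on 5 UMIs in 46 cells, so it cannot be ordered against that of 3 dpi. Schwann-like cells also held Hes1 at 247, 324, 307 and 228 CPM and Jag1 at 45.5, 102, 83.4 and 54.6 CPM. In NK cells Hes1 was lower at each later time, at 96.3, 53.1, 39.4 and 32.6 CPM. The 46 keratinocyte-like cells of the 3 dpi library had Notch1 at 150.3 CPM and Jag1 at 71.9 CPM.

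**Figure D5:**
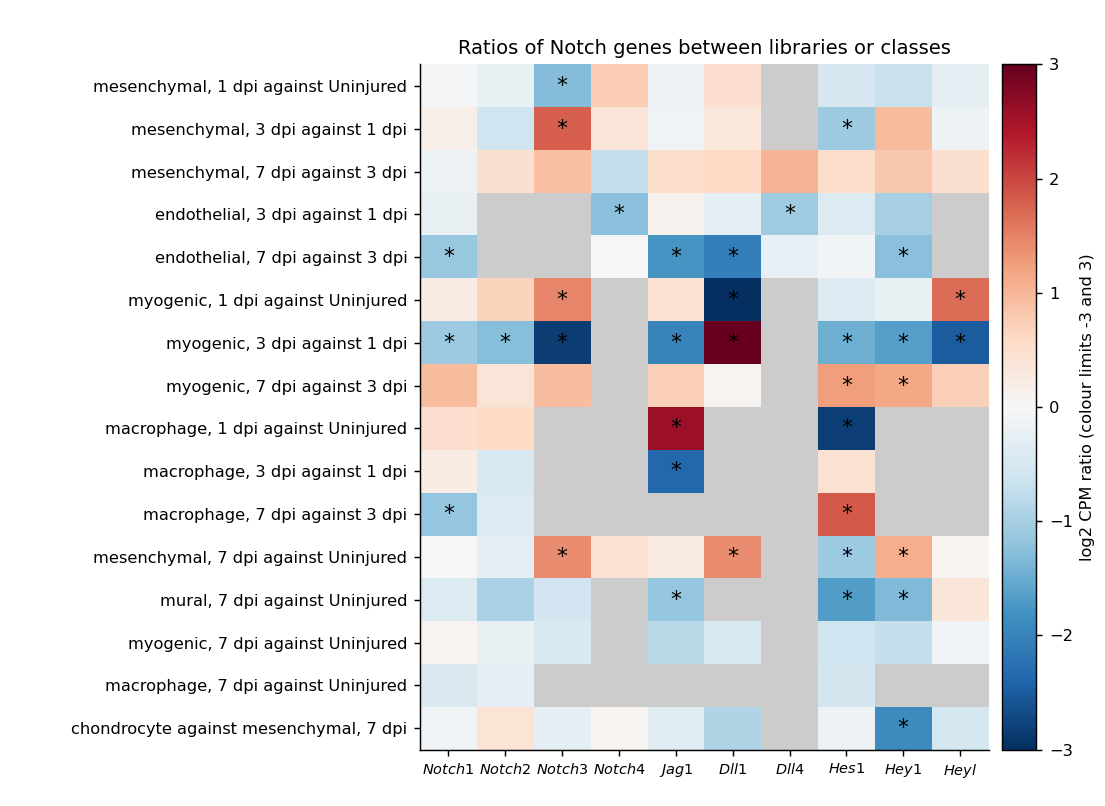
Log2 ratio of CPM for the 10 Notch pathway genes (columns) in 16 comparisons of class-libraries (rows). An asterisk marks a call and grey a gene with under 20 UMIs. In the myogenic step from 1 to 3 dpi, 7 members were called lower and Dll1 higher.

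The genes whose levels ran most like each member were sought over 41 pairs of class and library with at least 50 cells, among 14354 genes, by Pearson's r of log2(CPM + 10). The points share libraries, and those of 1 class share its gate markers, so r is a description. Endothelial cells gave points from the 1, 3 and 7 dpi libraries only, so the values below for Dll4 and Notch4 rest on few high points. Heyl was the gene most like Notch3 (r = 0.953), followed by the muscle genes Sgca (0.907) and Des (0.905). Dll4 and Notch4 had Cyyr1 and Sox17, an arterial endothelial factor, in common, at 0.987 and 0.987 for Dll4 and 0.985 and 0.983 for Notch4, and were alike to each other at 0.980. Dll1 was nearest to Rbp7 (0.912), Cdh13 (0.904) and Hey1 (0.889), and Hey1 to Cdh13 (0.943), Palmd (0.939) and Cavin2 (0.931). Jag1 was nearest to Adamts1 (0.928), Tns1 (0.924) and Cdc42bpa (0.923). Those nearest to the wide members were looser: Epn2 (0.879) for Hes1, Spen (0.807), which encodes a corepressor of RBPJ target genes, for Notch1 and Bcl6 (0.784) for Notch2.

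Of 43 further genes of the pathway, among them Dlk ligand-like genes, Fringe glycosyltransferases, the secretase subunits and further targets, most were not called in most steps. In myogenic cells 3 of 22 tested were called from Uninjured to 1 dpi, against 27.3% of all genes, 11 of 30 from 1 to 3 dpi, against 36.4%, and 11 of 32 from 3 to 7 dpi, against 21.1%. Hes6, a target-family gene that rises in differentiating muscle cells, was 5.93-fold higher at 3 than at 1 dpi, at 27.0 and 159.96 CPM. Dtx4 was 5.10-fold and Psen2, a secretase subunit, 4.76-fold lower in that step. Dlk1, a non-canonical ligand, was 26.6-fold higher at 7 than at 3 dpi, at 1.09 and 29.1 CPM on 5 and 30 UMIs. In mural cells 7 of 32 were called between Uninjured and 7 dpi, against 28.6% of all genes, with Dlk1 at 3.07 and 234 CPM and the targets Nrarp at 241 and 79.8 CPM and Hey2 at 51.2 and 16.9 CPM. In endothelial cells the ligand Jag2 fell 2.82-fold from 3 to 7 dpi, at 183 and 65.0 CPM, the 1 gene called of 21, against 16.5% of all genes. In macrophages 7 of 32 were called at 1 dpi, against 19.4% of all genes, with Lfng 2.99-fold and Adam17, a sheddase that cuts Notch, 2.86-fold higher and Mfng 2.58-fold lower. In mesenchymal cells 9 of 41 were called between Uninjured and 7 dpi, against 29.9% of all genes. Among them were Neurl1a, 19.4-fold higher at 0.165 and 3.20 CPM, and Nrarp, 7.44-fold higher at 0.191 and 1.42 CPM. From 3 to 7 dpi 7 of 41 were called in mesenchymal cells, against 19.4% of all genes, with Dlk1 8.31-fold higher, at 4.62 and 38.3 CPM. In chondrocyte-like cells 3 of 41 were called, against 11.8% of all genes, with Dlk2 6.84-fold higher than in mesenchymal cells, at 9.15 and 1.34 CPM.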

How the data were processed

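The authors dissociated tibial muscles with collagenase, made 10x libraries and deposited UMI counts per gene and barcode for each library. The labels name Cell Ranger 5.0.0, STAR, Seurat 3.1.1 and mm10. Cells within 2 SD of the mean log10 UMIs and log10 genes and with at most 10% mitochondrial UMIs were kept, and the 7.5% of barcodes with the highest Scrublet scores in each library were removed (scanpy 1.11.5, Python 3.11.15). A cell joined the class with most markers detected, with at least 2 and a unique lead, and non-immune classes needed 0 Ptprc UMIs. UMIs were summed per class and library. Intervals are exact Poisson for levels and exact conditional binomial for ratios, at 95%, and the floor for 0 UMIs is 3 counts over the class in a library. With 1 library per time point no p-value was computed. The members, gene lists and subsets were chosen with earlier results of these data known. Besides the 10 members, pathway genes were named by call, at most 5 per class by size of ratio, and the 3 most similar genes of each member were listed, with some left out of the text. Genome positions are from GENCODE M21, which matched 99.6% of gene IDs. The alternatives were looser and linear filters, all barcodes, thinned cells, another denominator, the mean of each cell's CPM, another fold limit, other gates and subsets of a class.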

Additional observations from a re-analysis of the deposited data

Results flagged for a closer look

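The patterns here are those in which a member moved in opposite directions in different cell classes over the same step, with 1 library per time point, so the difference between the classes was not tested. Hey1 from 3 to 7 dpi had a log2 ratio of -1.24 in endothelial cells and 1.15 in myogenic cells. Notch3 from Uninjured to 1 dpi had a log2 ratio of -1.30 in mesenchymal cells and 1.46 in myogenic cells. Notch3 from 1 to 3 dpi had a log2 ratio of 1.80 in mesenchymal cells and -2.85 in myogenic cells. The mesenchymal Notch3 levels behind these ratios were 4.35, 1.77 and 6.15 CPM in the Uninjured, 1 and 3 dpi libraries, against T cell levels of 0, 0.902 and 1.65 CPM in the same libraries. The 8 mural markers summed to 111, 44.9 and 206 CPM in the mesenchymal class of those libraries, and their part in these ratios was not tested.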

How the results depend on the processing

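No paired analysis was possible because each time point has a single library. Of the members' log2 ratios, 1 reversed: Hes1 in macrophages from 3 to 7 dpi, 1.83 in the class and -0.39 in C1q+ cells. The value in C1q+ cells lay inside the 2-fold limit and rested on few UMIs at 7 dpi. Every other called ratio kept its direction under each alternative run. The number of members called moved by over 1.5 times in these cases. No share over all genes is given for the alternatives, so the counts below are not set against it. In macrophages, C1q+ cells gave 2 rather than 1 from 1 to 3 dpi, 1 rather than 2 from 3 to 7 dpi and 1 rather than 0 between Uninjured and 7 dpi, and Ly6c2+ C1q- cells gave 1 rather than 2 at 1 dpi and 0 rather than 1 at 3 dpi. Pax7+ Myog- cells gave 4 rather than 2 in the myogenic step from 3 to 7 dpi, Rgs5- mural cells 0 rather than 3, and mesenchymal cells without cycling genes 1 rather than 0 from 3 to 7 dpi. Filters on the linear scale gave 1 rather than 2 in the myogenic step from 3 to 7 dpi and in the endothelial step from 1 to 3 dpi. All barcodes gave 6 rather than 2 in the myogenic step from 3 to 7 dpi, 2 rather than 1 in chondrocyte-like cells and 0 rather than 1 in mesenchymal cells at 1 dpi, and keeping doublets gave 2 rather than 1 in chondrocyte-like cells. A limit of 1.5-fold gave 3 rather than 0 in myogenic cells between Uninjured and 7 dpi, 5 rather than 2 in their step from 3 to 7 dpi, and in mesenchymal cells 3 rather than 1, 4 rather than 2 and 4 rather than 0 in the 3 steps. A lead of 2 markers gave 1 rather than 2 in the endothelial step from 1 to 3 dpi. The mean of each cell's CPM gave 1 rather than 2 in mesenchymal and endothelial cells from 1 to 3 dpi, 4 rather than 0 in mesenchymal cells and 1 rather than 2 in myogenic cells from 3 to 7 dpi, and 1 rather than 0 in myogenic cells between Uninjured and 7 dpi. Without the Ptprc condition endothelial cells gave 0 rather than 2 and 1 rather than 4 in the 2 steps, and chondrocyte-like cells 2 rather than 1. Thinned cells gave 0, 0, 1 and 2 rather than 1, 2, 0 and 4 in the mesenchymal steps and between Uninjured and 7 dpi, 1 and 2 rather than 2 and 4 in the endothelial steps, 4 rather than 8, 1 rather than 2 and 1 rather than 0 in myogenic cells from 1 to 3 dpi, from 3 to 7 dpi and between Uninjured and 7 dpi, and 1 rather than 2 in macrophages at 1 dpi. The comparisons of 7 dpi with Uninjured, of chondrocyte-like with mesenchymal cells and within subsets were chosen after seeing the data, and apart from the subsets' own make-up the cause of these moves was not tested. Endothelial cells at 1 dpi against Uninjured and mural cells in single steps gave no value, with under 50 cells on a side. Depth limits the rare members most: a gene with 0 UMIs in a class may lie below the level that 3 counts give.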
